A study of Mus musculus with 6 samples.

Results

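The regions described here are the differentially methylated regions (DMRs) of 7 forkhead transcription factor genes in mouse lung endothelial cells (EC). The genes are *Foxp1*, *Foxo1*, *Foxo3*, *Foxf1*, *Foxc1*, *Foxc2* and *Foxm1*. A DMR was taken as belonging to a gene when its midpoint lay in the gene body, the union of the curated RefSeq transcripts on GRCm38 (mm10), or within 10 kb of it. By this rule 38 of the 18333 listed DMRs belonged to 4 of the 7 genes, 25 to *Foxp1*, 8 to *Foxo3*, 3 to *Foxo1* and 2 to *Foxc1*. *Foxf1*, *Foxc2* and *Foxm1* had 0.

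DNA methylation had been profiled by tagmentation-based whole genome bisulfite sequencing, in which a transposase fragments the DNA and adds the adaptors, and bisulfite then converts unmethylated cytosines. The EC came from lungs of C57BL/6N mice, described as female in the methods, and were sorted as negative for PTPRC, LYVE1, LY76, PDPN and PI and positive for CD31 and CD34. An infant group of 3 samples (8 to 10 days old) was compared with a young adult group of 3 samples (8 to 12 weeks old), and the labels name no transgene or treatment for either. A region was listed by the authors when at least 3 consecutive CpGs differed and the group means were at least 10 percentage points apart.

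The values are the authors' mean methylation per group. Values per sample and the depth behind a DMR were not analysed here, so no replicate error is given beside a difference and no test was run. The DMRs had been selected on the same samples, which tends to enlarge their differences. The assay does not measure RNA, so the EC identity of the samples was not checked here against marker expression.

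Forkhead factors share a winged-helix DNA-binding domain and recognise related sequences in promoters and enhancers. FOXO1 and FOXO3 are held in the cytoplasm when growth factors activate PI3K and AKT, and in EC FOXO1 restrains growth and metabolism, while FOXM1 drives the expression of mitotic genes. FOXF1 is required for the formation of lung capillaries, FOXC1 and FOXC2 for arterial and lymphatic development, and FOXP1 is mainly known as a repressor that binds DNA as a dimer. CpG methylation is typically high across gene bodies and low at active promoters and enhancers.

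The sequences of 5 DMRs are shown first, the largest loss of *Foxp1*, *Foxo3* and *Foxo1* and the 2 largest gains of *Foxp1*, on the plus strand of GRCm38 with each CpG in capitals. The first is the *Foxp1* DMR with the largest loss of methylation at chr6:99103433-99103604, where the infant mean was 61.6% and the young adult mean 20.7%. The second is the central 300 bases, at chr6:99264955-99265254, of the *Foxp1* DMR with the largest gain, from 15.9% to 57.6%. The third is the next largest gain of *Foxp1*, at chr6:99019319-99019482, from 13.4% to 54.2%. The fourth and the fifth are the largest losses of *Foxo3* at chr10:42273699-42273763, from 60.3% to 8.90%, and of *Foxo1* at chr3:52287815-52287881, from 42.4% to 18.3%. Regions are numbered along the direction of transcription of each gene.
Foxp1 region 10: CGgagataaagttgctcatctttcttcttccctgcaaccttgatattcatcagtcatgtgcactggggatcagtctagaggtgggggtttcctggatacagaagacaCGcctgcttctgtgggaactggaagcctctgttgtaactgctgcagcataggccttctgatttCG
Foxp1 region 6: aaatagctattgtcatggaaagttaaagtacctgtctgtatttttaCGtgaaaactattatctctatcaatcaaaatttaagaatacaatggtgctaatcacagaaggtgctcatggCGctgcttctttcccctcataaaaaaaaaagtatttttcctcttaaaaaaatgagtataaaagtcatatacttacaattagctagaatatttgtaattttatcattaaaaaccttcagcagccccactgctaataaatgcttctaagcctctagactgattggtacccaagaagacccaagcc
Foxp1 region 18: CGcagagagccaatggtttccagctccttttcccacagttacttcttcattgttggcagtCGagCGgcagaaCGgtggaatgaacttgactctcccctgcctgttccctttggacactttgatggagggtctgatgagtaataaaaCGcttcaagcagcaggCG
Foxo3 region 3: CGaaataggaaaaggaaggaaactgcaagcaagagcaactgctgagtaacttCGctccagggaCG
Foxo1 region 3: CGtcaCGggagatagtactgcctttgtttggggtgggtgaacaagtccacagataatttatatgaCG
In the order shown the 5 stretches hold 3, 2, 6, 3 and 3 CpGs. All 5 lie in introns.

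Of the 38 DMRs, 17 lost methylation in young adult EC and 21 gained it. The share of loss was 44.7% (95% Wilson interval 30.2% to 60.3%, covering the count of regions only), beside 45.9% of all listed DMRs. The interval takes the regions as independent, although 25 of the 38 belong to *Foxp1* and some lie close together. For the 34 DMRs in gene bodies the share was 44.1%, beside 57.5% of the 12175 DMRs in any gene body. In 4 of the 7 genes at least 1 DMR was found in the gene body or within 10 kb, compared with 26.5% of all 26182 gene loci. A loss DMR was found at 3 of the 7 genes (11.9% of all genes) and a gain DMR at 4 (18.3% of all genes). Within the gene body itself 3 of the 7 genes held a DMR, compared with 17.6% of all genes, and each of the 3 held both a loss DMR (8.46% of all genes) and a gain DMR (11.4% of all genes). These shares depend on gene size. *Foxf1*, *Foxc1* and *Foxc2* are under 10 kb, and of the 11248 genes under 10 kb 15.5% had a DMR in the body or within 10 kb.

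**Figure D1:**
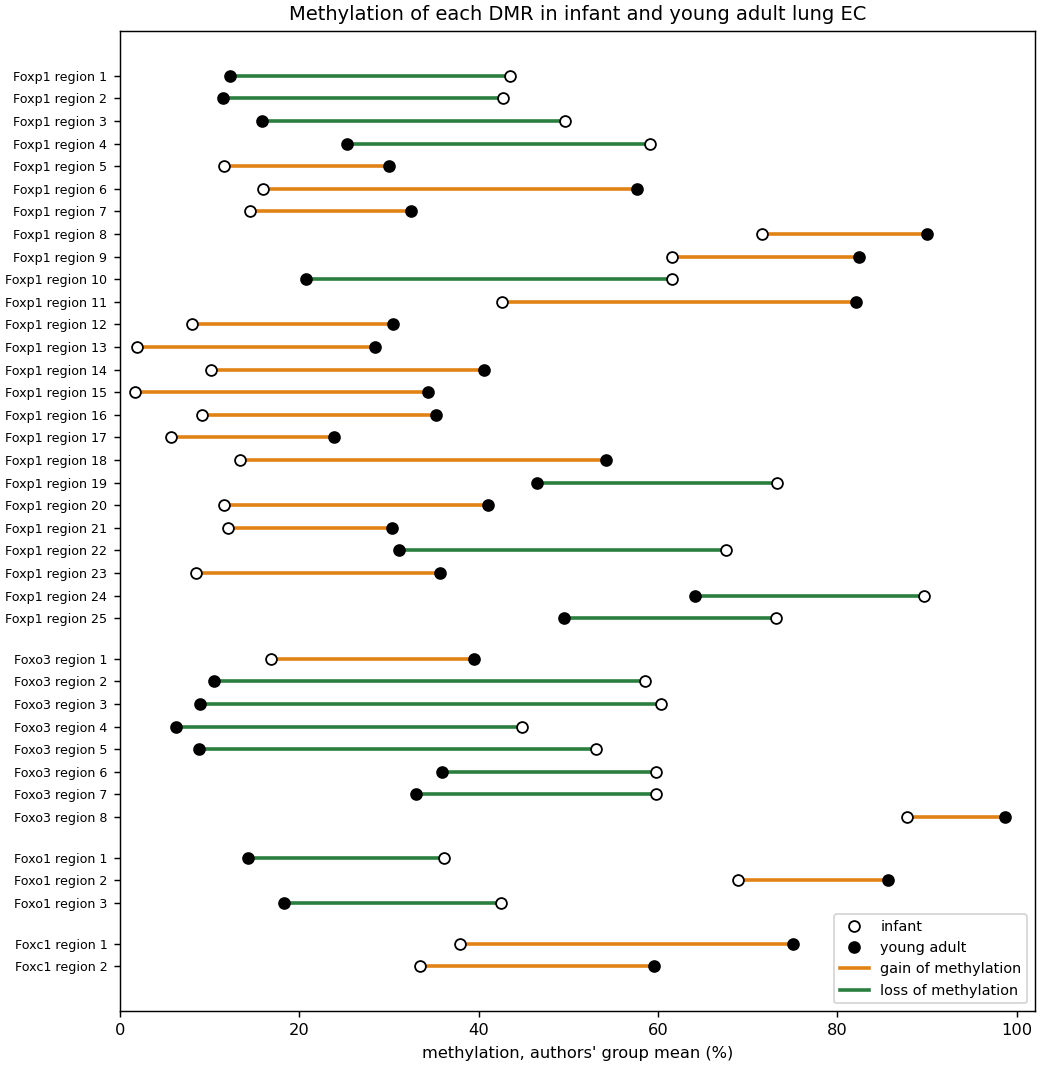
Methylation of each of the 38 DMRs in infant (open circles) and young adult (filled circles) lung EC, as the authors' group means in percent, with gains in orange and losses in green. Most gains of *Foxp1* begin under 20% in infant EC and end between 23.8% and 57.6%, while 4 losses of *Foxo3* end under 20%.

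*Foxp1* carried the most DMRs of the 7 genes, in both directions. The gene runs over chr6:98925342-99520993 on the minus strand (596 kb) and has 4 curated transcripts that share their 3′ end but start at different places, 0, 85.6, 254 and 493 kb along the gene. Of its 25 DMRs, 24 lay in the gene body, all in introns of the longest transcript, and 1 lay upstream. The body held 4.03 DMRs per 100 kb, compared with 1.17 per 100 kb over all gene bodies. Among the 211 genes of at least 500 kb, 168 had a DMR in the body, the median was 2, and *Foxp1* had the most with 24. Of all genes 29 had at least 24, itself included.

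Gain of methylation was the more frequent direction in *Foxp1*, as it was over all listed DMRs. Of the 25 DMRs 16 gained and 9 lost methylation, a share of loss of 36% beside 45.9% of all listed DMRs. In the body alone the share was 33.3%, beside 57.5% of all DMRs in gene bodies. A gene body with at least 16 gain DMRs was found for 6 genes in all, which were *Magi1* with 22, *Hspg2* and *Rora* with 19 each, *Lrmda* with 17, and *Foxp1* and *St6galnac3* with 16. For loss, 213 genes had at least the 8 DMRs that the *Foxp1* body held.

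The gains of *Foxp1* started from a different level than most gains of the list. In 13 of the 16, methylation was under 20% in infant EC (median 10.1%, range 1.69% to 15.9%) and reached a median of 34.4% (23.8% to 57.6%) in young adult EC. Over all gain DMRs 14.6% started under 20%, and over the intragenic ones 17.1%. The other 3 gains began between 42.6% and 71.6% and ended between 82.1% and 90%. Thus 11 of the 16 gains were still under 50% in young adult EC, compared with 16.9% of all gain DMRs, whose medians were 54.8% and 78.1%. Most *Foxp1* gains were partial, from low to intermediate methylation, whereas the typical listed gain went from intermediate to high. Counting gains that began under 20%, *Foxp1* had 13 of the 1448 of the list in its body, the most of any gene, followed by *Hoxb3* with 10 and *Magi1* with 7. The bodies of these genes are 595652, 24805 and 608465 bases long, and the count is not scaled by length, so *Hoxb3* was the densest of them. This last count was made after the values of *Foxp1* had been seen.

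**Figure D2:**
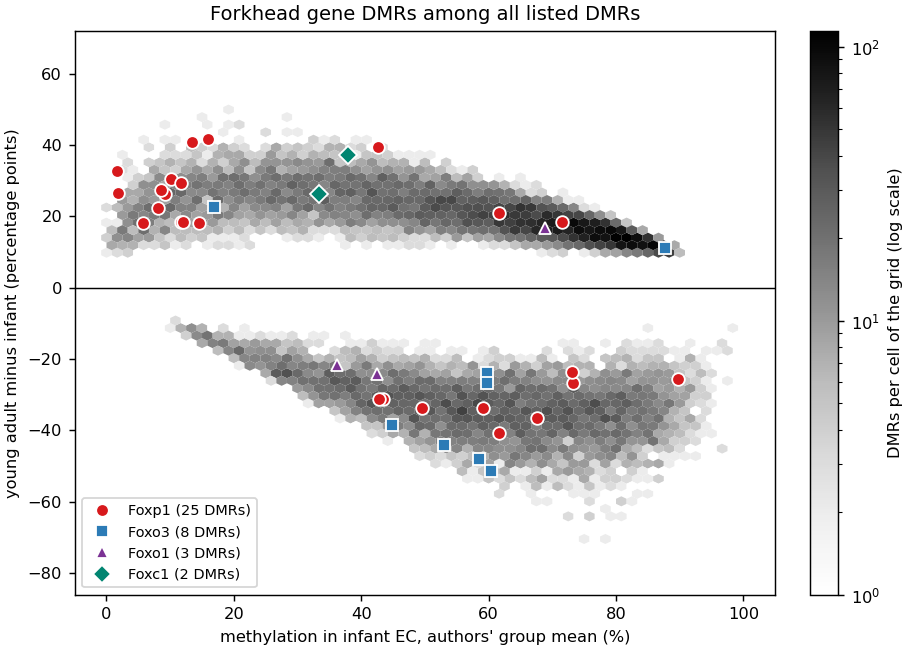
Infant methylation (x axis, percent) against the difference of young adult minus infant (y axis, percentage points), with all 18333 DMRs as a grey grid and those of *Foxp1*, *Foxo3*, *Foxo1* and *Foxc1* as coloured symbols. The 13 *Foxp1* gains that began under 20% sit at the left edge, away from the dense part of the gains at higher infant methylation.

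Most losses of *Foxp1* lay outside the span of its gains. The first 4 DMRs along the direction of transcription, from 8.33 kb upstream of the first start to 77.4 kb into the gene, were all losses. No DMR was listed over the next 106 kb, and from 183 kb to 526 kb lay all 16 gains, with 3 losses among them. The last 2 DMRs, at 541 and 544 kb, were losses again, the nearer lying 14.3 kb from the last gain. The final 51.2 kb of the gene held no DMR. Hence 6 of the 9 losses lay outside the 343 kb that the gains spanned. Read in order, the 25 DMRs formed 9 runs of the same direction. The run with the most DMRs comprised 8 gains over 77.9 kb, and the run with the widest span 5 gains over 231 kb.

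The counts differed between the stretches that the transcript starts set apart. Between the first and the second start (85.6 kb) 3 losses and 0 gains were listed. Between the second and the third (169 kb) there was 1 gain, and between the third and the last (238 kb) 7 gains and 1 loss. Downstream of the last start, 103 kb that all 4 transcripts share, 8 gains and 4 losses were listed. The 4 stretches of the body held 10.7 to 15.3 CpGs per kb, most in the last one.

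**Figure D3:**
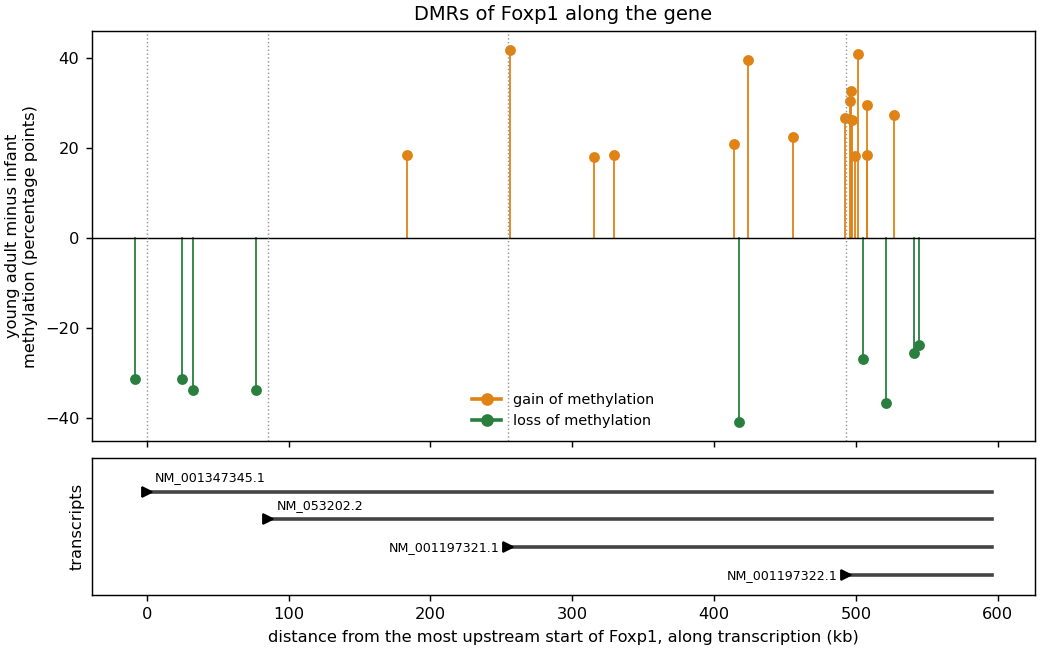
Difference of young adult minus infant methylation (percentage points) of the 25 DMRs of *Foxp1* against their distance along transcription from the most upstream start (kb), with the 4 curated transcripts and their starts (dotted lines) below. Of the 9 losses 6 sit outside the span of the 16 gains, toward either end of the gene, and 3 sit within it, and 8 gains and 1 loss lie within 20 kb of the last start.

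The densest group of *Foxp1* DMRs lay mostly downstream of the last start, that of the shortest transcript NM_001197322.1 at position 99028298. Within 20 kb of this start lay 9 DMRs, of which 8 gained methylation. These 8 began at a median of 9.64% (1.69% to 13.4%) in infant EC and ended at 34.8% (23.8% to 54.2%), over 36 CpGs. The DMR nearest to the start, region 13 at chr6:99029053-99029084, lay 0.77 kb upstream of it and rose from 1.87% to 28.4%. It was the only DMR of the group upstream of the start, and the others lay 2.98 to 15.1 kb downstream. Region 20 at chr6:99013254-99013753 was the widest of the 8 with 500 bases and 10 CpGs, and rose from 11.6% to 41.1%. The single loss within the 20 kb, region 19 at chr6:99016381-99016393, fell from 73.3% to 46.5% and covered 3 CpGs in 13 bases. It lay 2.93 kb from the gain on one side and 2.63 kb from that on the other.

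The 3 largest gains of *Foxp1* were among the largest of the list. Region 6 at chr6:99264848-99265361 rose by 41.7 percentage points from 15.9% to 57.6% over 6 CpGs, a gain that 62 of the 9911 gain DMRs reached (0.626%). It lay in intron 3, 1.41 kb downstream of the third transcript start. Region 18, 8.90 kb downstream of the last start in intron 6, rose by 40.7 points from 13.4% to 54.2%, which 81 DMRs reached (0.817%). Region 11 at chr6:99097157-99097241 in intron 5 rose by 39.5 points from 42.6% to 82.1%, which 122 reached (1.23%). So the largest gain and the second largest each lay within 10 kb of an internal start, and the next one 68.9 kb away from any.

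The losses of *Foxp1* were of ordinary size for the list. Their median difference was -31.3 percentage points, from 61.6% to 25.3%, beside -32.5 points, from 61.5% to 25.4%, over all 8422 loss DMRs. The largest, region 10, fell by 40.9 points, which 17.7% of all loss DMRs reached. Region 22 at chr6:98999500-98999755 in intron 10 fell from 67.6% to 31.1%, and region 4 at chr6:99443590-99443655 in intron 1 from 59.1% to 25.3%. The outermost DMRs were both losses. Region 1 at chr6:99529140-99529515, upstream of the gene, fell from 43.5% to 12.2%, and region 25 at chr6:98976518-98976630 in intron 11 fell from 73.2% to 49.5%. The losses in the 5′ part ended lower, at 11.4% to 25.3% in regions 1 to 4, than the outermost pair at the 3′ end, at 64.1% and 49.5%.

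Opposite changes lay close together in the middle of the gene. Region 10, the largest loss, was flanked by region 9 at 3.52 kb on one side, which rose from 61.6% to 82.4%, and by region 11 at 6.19 kb on the other. In infant EC regions 9 and 10 had the same mean methylation of 61.6%. In young adult EC they were at 82.4% and 20.7%.

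Region 10 was also covered by a MassARRAY amplicon of the study, a mass spectrometry assay of bisulfite-converted DNA. The primers, designed on converted DNA and shown here because they fix the interval tested, matched the converted plus strand at 1 place, chr6:99103400-99103767 (368 bases). The amplicon held 4 CpGs, 3 of them in region 10.
Foxp1 forward primer: ttatttatttaatgatgttttgagatg
Foxp1 reverse primer: caactaaaatctctttacaactcc

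*Foxo3*, a FOXO factor that PI3K and AKT signalling inhibits, lost methylation in 6 of its 8 DMRs. That share of loss was 75%, beside 57.5% of all DMRs in gene bodies. The gene runs over chr10:42181845-42276695 on the minus strand (94.9 kb), and all 8 of its DMRs lay in the body, 6 losses and 2 gains. At 8.43 DMRs per 100 kb it had the highest density of the 7 genes, compared with 1.17 per 100 kb over all gene bodies, and 309 genes had at least 8 DMRs and 301 at least 6 losses. The 6 losses all lay in intron 2, between 2.70 and 71.4 kb from the start. Their median went from 59.2% to 9.69%. In 4 of the 6 the young adult level was under 20%, compared with 38.1% of all loss DMRs.

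The 4 losses of *Foxo3* in the first 26 kb of the gene were larger than the 2 farther along. Region 3, shown above, fell by 51.4 percentage points from 60.3% to 8.90%, a loss that 237 of the 8422 loss DMRs reached (2.81%). Region 2 at chr10:42273917-42274078, 153 bases away, fell by 48.1 points from 58.5% to 10.5%, which 446 reached (5.30%). Region 4 at chr10:42262609-42262662 fell from 44.8% to 6.21%, and region 5 at chr10:42250952-42251218 from 53.1% to 8.83%. In contrast, regions 6 and 7, at 29.1 and 71.4 kb from the start, began at 59.8% in each case and ended at 35.9% and 33.0%. The infant levels of the 6 losses thus spanned 44.8% to 60.3%, and the young adult levels fell into a group of 4 below 11% and a pair above 32%.

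The 2 gains of *Foxo3* lay toward its ends. Region 1 at chr10:42274788-42274826, 1.89 kb from the start, rose from 16.8% to 39.4%. Its midpoint was in intron 2, it overlapped a coding exon and its surrounding sequence was island-like. Only 709 bases separated it from region 2, which changed by 48.1 points in the opposite direction. Region 8 at chr10:42196771-42196881 lay in the coding sequence of exon 3 and was the only 1 of the 38 DMRs with its midpoint in an exon. It rose from 87.7% to 98.7%, a difference of 11.0 points that is close to the minimum of 10 points for listing.

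Regions 2 and 3 were both touched by the *Foxo3* amplicon of the MassARRAY assay at chr10:42273669-42273945 (277 bases), whose primers also matched the converted plus strand at 1 place. Of its 6 CpGs 4 were in these DMRs.
Foxo3 forward primer: agttagaagttatagagtttataatg
Foxo3 reverse primer: tattccctttcaacctcttaaaac

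*Foxo1*, the FOXO factor known for restraining EC growth, had 3 DMRs, 2 losses and 1 gain. Assignment to the nearest promoter in the authors' list gave it 7. The gene runs over chr3:52268337-52350109 on the plus strand (81.8 kb) and had 2 DMRs in the body, both in intron 1, and 1 upstream, at 2.45 DMRs per 100 kb of body beside 1.17 over all gene bodies. Region 1 at chr3:52258432-52258572 fell from 36.1% to 14.3%, and region 3 from 42.4% to 18.3%. Both losses were smaller than most of the list, as 89.5% and 83.1% of all loss DMRs were at least as large. Region 2 at chr3:52282915-52283056, 4.76 kb from region 3, rose from 68.9% to 85.6% and was annotated as repeat over 75.4% of its bases, the only member DMR that was repeat over at least 50% (8.30% of all DMRs were). The losses of *Foxo1* began lower in infant EC, at 36.1% and 42.4%, than the lowest loss of *Foxo3* at 44.8% and the lowest of *Foxp1* at 42.8%.

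*Foxc1*, which acts in arterial development, had 0 DMRs in its body and 2 gains in its downstream flank. The gene is 3.99 kb long, at chr13:31806646-31810635 on the plus strand. Region 1 at chr13:31815552-31815674 rose from 37.9% to 75.1% by 37.1 points, which 244 of the 9911 gain DMRs reached (2.46%). Region 2 at chr13:31815923-31816134 rose from 33.4% to 59.6% and lay 248 bases from it. Another gain just beyond the flank, at 10.7 kb from the gene in the neighbouring *Gmds*, rose from 52.4% to 82.5%. The sequence of region 1 is given for its size, in the same format as above.
Foxc1 region 1: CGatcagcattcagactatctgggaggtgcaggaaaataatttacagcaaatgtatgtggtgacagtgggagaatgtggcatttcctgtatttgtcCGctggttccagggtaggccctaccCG

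The limit of 10 kb decided the membership of few DMRs. Just inside it lay region 1 of *Foxo1* at 9.84 kb upstream, and just outside it the gain near *Foxc1* at 10.7 kb. The next one outside lay 14.4 kb from *Foxf1*. With a flank of 50 kb the count was 49, of which 25 were again of *Foxp1*, and 1 DMR counted for both *Foxf1* and *Foxc2*.

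*Foxf1*, which is needed for lung capillaries, had 0 DMRs in its body or within 10 kb, yet a group of losses lay next to it. The gene occupies chr8:121084386-121088154 on the plus strand, and the divergent long noncoding RNA gene *Fendrr* (chr8:121054882-121083110, minus strand) begins 1276 bases from its start. All 5 DMRs within 50 kb of *Foxf1* lay in *Fendrr* and lost methylation, 14.4 to 27.5 kb from *Foxf1*. The largest, at chr8:121063895-121064158, fell from 62.9% to 20.7% over 7 CpGs. The nearest, at chr8:121070018-121070023, fell from 78.4% to 38.7%. The other 3 fell from 74.1% to 48.1%, from 62.7% to 31.4% and from 69.0% to 50.6%. *Foxc2*, a regulator of lymphatic valves at chr8:121116171-121118895, had none nearer than 46.2 kb, and that one was the same *Fendrr* DMR.

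*Foxm1*, the regulator of mitotic genes, had 0 as well. The gene lies at chr6:128362994-128375886 on the plus strand. Within 50 kb 2 DMRs were listed, both in the upstream gene *Tulp3*. At 18.4 kb methylation fell from 62.3% to 21.8%, and at 23.6 kb it rose from 80.8% to 99.1%. Its overlapping or adjoining neighbours *Rhno1* and *Tex52* had none.

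**Figure D4:**
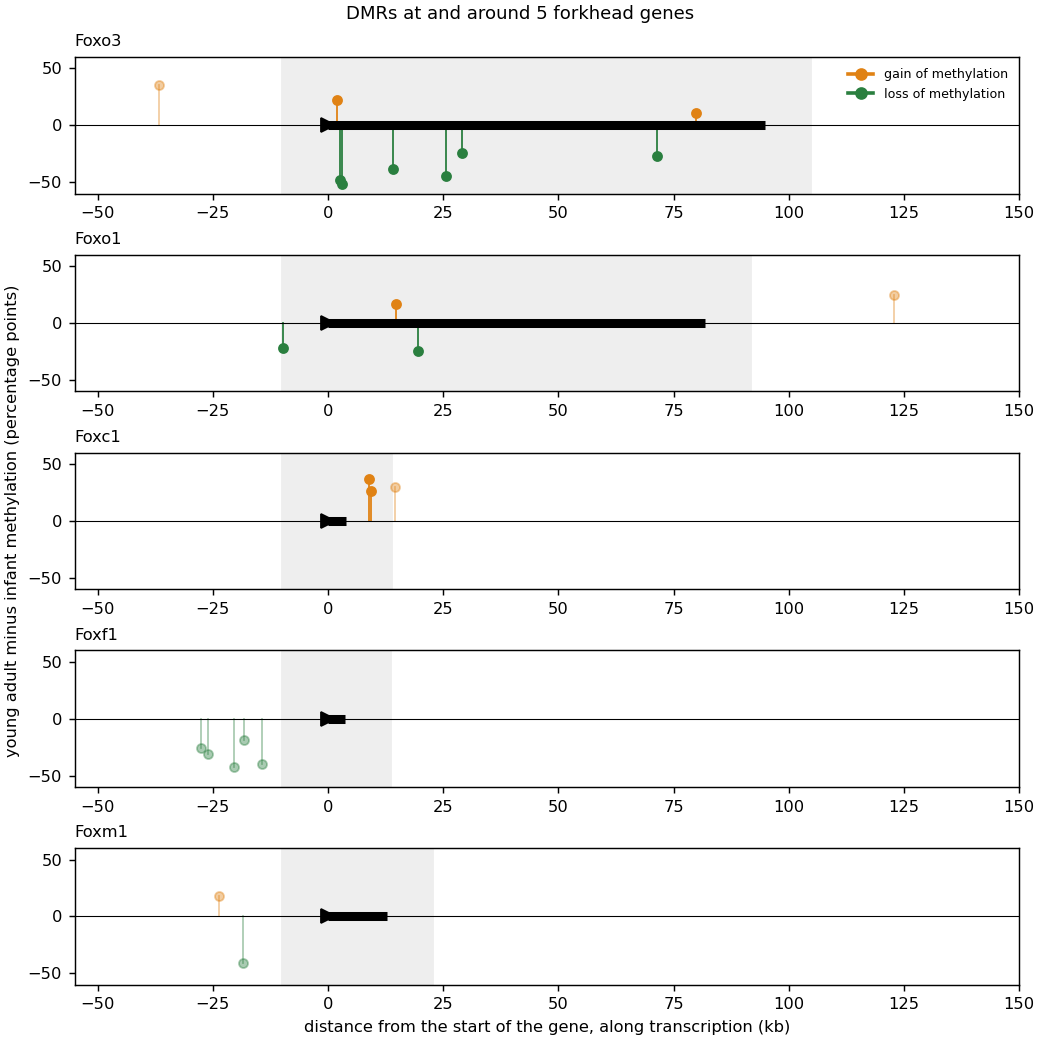
Difference of young adult minus infant methylation (percentage points) of the DMRs around *Foxo3*, *Foxo1*, *Foxc1*, *Foxf1* and *Foxm1*, against distance from the start of each gene along transcription (kb). Black bars mark the gene bodies, grey areas the bodies with 10 kb on either side, and pale points DMRs outside them. *Foxo3* has its 4 largest losses in the first 26 kb, and the 5 losses beside *Foxf1* lie upstream of the grey area.

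The share of DMRs at transcript starts was near that of the list. Of the 38, 1 lay within 1 kb of a start (2.63%), beside 4.19% of all DMRs, and 3 within 2 kb, beside 1729 of all 18333. Promoter sequences of 300 bases from RefSeq (GRCm38.p6) were matched for 4 of the 7 genes, 6 promoters in all, and 0 of the 6 overlapped a DMR. No share over all promoters is given here, so this count of 0 is not read as a trait of these genes. By place, 33 of the DMRs were intronic, 1 exonic, 2 upstream and 2 downstream. An island-like window of 200 bases (at least 50% GC and a ratio of observed to expected CpGs of 0.6 or more) touched 6 of the 38 (15.8%), beside 13.8% of all DMRs. In *Foxp1* 96 CpGs of the 7026 in the body were in DMRs (1.37%), in *Foxo3* 29 of 1620 (1.79%) and in *Foxo1* 6 of 1052 (0.570%). No such share over all gene bodies is given here.

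Motifs were searched on both strands of windows of 200 bases centred on each DMR, and a match describes letters only. A forkhead motif, TGTTTAC or TGTTTGC, was in 4 of the 38 windows (10.5%) and in 8.87% of all windows. The forkhead-like GACGC was in 1 window (2.63%, beside 10.2% of all), the ETS motif CAGGAAG in 1 (2.63%, beside 10.9%) and the AP-1 motif TGANTCA in 1 (2.63%, beside 6.51%). Of the 35 DMRs of at most 300 bases, 3 held a forkhead motif inside (8.57%, beside 5.71% of all DMRs of this size), all in *Foxp1* introns. Of these, 2 are shown on the plus strand with the motif, or its reverse complement, in capitals, region 11 at chr6:99097157-99097241 and region 17 at chr6:99021466-99021701.
Foxp1 region 11: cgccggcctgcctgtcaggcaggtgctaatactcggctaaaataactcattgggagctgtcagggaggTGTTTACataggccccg
Foxp1 region 17: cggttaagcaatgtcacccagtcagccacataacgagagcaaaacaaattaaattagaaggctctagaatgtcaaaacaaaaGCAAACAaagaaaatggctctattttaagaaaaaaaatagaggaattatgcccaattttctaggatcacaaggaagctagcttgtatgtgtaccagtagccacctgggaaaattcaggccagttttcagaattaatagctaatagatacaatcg
Of the 3, 1 lost and 2 gained methylation. Region 17 rose from 5.66% to 23.8%, and region 11 is the third largest gain described above.

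Among the other forkhead family genes, *Foxk1* and *Foxn3*, known as repressors, had the most DMRs. The family comprised 44 genes by symbol, of which 10 had a DMR in the body (22.7%, beside 17.6% of all genes), and of the 37 other than the 7 above 7 had one (18.9%). A total of 26 of the 44 genes are under 10 kb. *Foxk1* had 11 losses and 0 gains in its body, from a median of 62.5% to one of 27.2%. *Foxn3* had 8 losses and 3 gains in its body, its losses with 1 in the flank falling from a median of 53.5% to 9.58%. *Foxk2* had 1 loss and 1 gain. *Foxp2*, a close relative of *Foxp1*, had 2 gains that started high, at a median of 74.6%, and ended at 89.5%, above the 13 *Foxp1* gains that began under 20%. *Foxd2*, *Foxj1* and *Foxn1* had 1 gain each.

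**Figure D5:**
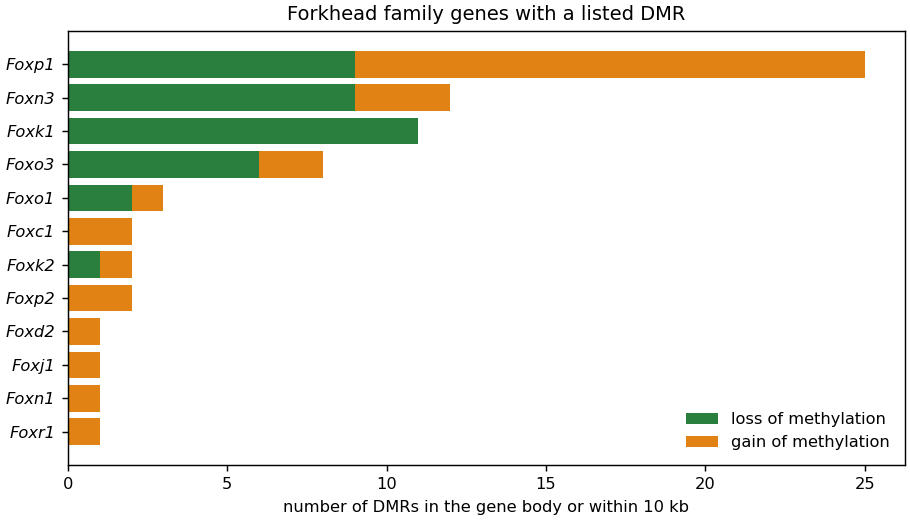
Number of loss (green) and gain (orange) of methylation DMRs in the gene body or within 10 kb, for the 12 of 44 forkhead family genes with any. *Foxp1* has 25, with 16 gains, and *Foxk1* 11, which are all losses.

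Genes that act with the forkhead factors were counted by lists, and no test of the lists was made. The list of FOXO control held genes of PI3K and AKT signalling and other regulators of FOXO proteins. Of its 20 genes 9 had a DMR in the body (45%, beside 17.6% of all genes), with 25 losses and 10 gains. A loss was found in 7 of the 20 (8.46% of all genes) and a gain in 3 (11.4% of all genes). *Pik3cb*, a catalytic PI3K subunit, had 12 losses (medians 64.6% and 31.5%), *Pik3r1*, a regulatory subunit, had 4, and *Ywhaz*, a 14-3-3 protein, had 3. *Sgk1*, a kinase that phosphorylates FOXO factors, had 6 gains and 1 loss. *Sgk3* had 3 gains, from a median of 35.1% to one of 65.5%. The median gene of this list was 59.2 kb long, beside 13.5 kb over all genes.

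A further list held 16 endothelial genes linked to FOXF1 and FOXC factors. Of these, 8 had a DMR in the body (50%, beside 17.6% of all genes). All 8 had a loss there (8.46% of all genes) and 0 a gain (11.4% of all genes). The 47 DMRs were all losses, beside 57.5% of all DMRs in gene bodies. The median length in this list was 43.0 kb. With 10 kb on either side 12 of the 16 genes had a DMR (26.5% of all genes), 51 losses and 10 gains in all. *Cdh5*, the adhesion molecule VE-cadherin, and *Pecam1*, which encodes the CD31 used for sorting, had 15 each in the body. *Dll4*, a NOTCH ligand, had 5 losses there, and *Kdr*, the receptor of VEGF, had 4. Of the 10 gains, 6 lay in the flank of *Dll4*, from a median of 23.3% to one of 55.9%, and 1 each in the flanks of *Angpt2*, *Bmp4*, *Itgb3* and *Notch4*. Of the mitotic targets of FOXM1, with a median length of 11.6 kb, 3 of 15 had a DMR in the body (20%, beside 17.6% of all genes). These were 1 loss in 1 gene (8.46% of all genes) and 2 gains in 2 genes (11.4% of all genes). Within 10 kb 6 of the 15 had a DMR (26.5% of all genes), 5 losses and 6 gains in all. In the list of FOXP1 partners and related genes, with a median length of 33.1 kb, 4 of 10 had a DMR in the body (40%, beside the same 17.6%). The 5 losses lay in 1 gene (8.46% of all genes) and the 9 gains in 4 (11.4% of all genes). The corepressor *Ctbp2* had 5 losses and 1 gain, and *Nr2f2*, a regulator of venous identity, had 5 gains.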

How the data were processed

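DNA methylation was measured in 3 infant and 3 young adult samples of sorted lung EC, which the labels call independent biological replicates. The authors aligned T-WGBS reads to mm10, kept CpGs covered at least 8-fold in at least 2 of 3 samples per group, and listed a DMR where at least 3 consecutive CpGs differed at p under 0.05 and by at least 10%. The submitters' processing notes name bcl2fastq 1.8.4, BWA 0.6.1 and R 3.2.2. The deposited fraction is the authors' mean methylation per group and DMR, given here as percent. Coverage limits which CpGs could be listed, but the depth per DMR was not analysed here.

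The 0-based coordinates were converted so that each of the 18333 DMRs begins and ends with a CpG. Gene bodies were the union of 45756 curated RefSeq transcripts (26182 loci). Python 3.11.15, pandas 2.3.3, pysam 0.24.0 and samtools 1.23.1 were used, and the counting was tested on simulated data. Values per sample were not used here, so no test was run and members are described beside all DMRs or genes. Alternatives concerned the flank, thresholds, joining and assignment of DMRs.

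The members and lists were chosen with earlier results of these data known. Named were the 7 genes, their largest and outermost DMRs, those with amplicons, neighbours, the genes with most DMRs per list, and the 3 most like *Foxp1*. Single DMRs and genes beyond this rule, and the sequences of *Foxp1* region 18 and *Foxc1* region 1, were chosen after their values were seen. The sequence of 1 further DMR is not reported here.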

Additional observations from a re-analysis of the deposited data

How the results depend on the processing

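With DMRs of at least 5 CpGs, the number of DMRs fell from 38 to 9 in all, from 25 to 5 in *Foxp1*, from 8 to 2 in *Foxo3* and from 3 to 1 in *Foxo1*. The share of loss was then 44.4% over the 9 DMRs and 20% instead of 36% in *Foxp1*, beside 74.6% over all 2887 DMRs of this kind, and the share of its losses outside the span of the gains 100% instead of 66.7%, which rests on 1 loss. The median difference of the 38 DMRs was 17.4 percentage points (12.6 over all listed DMRs), 22.3 with at least 5 CpGs and 13.9 with DMRs joined within 500 bp. Losses (median -31.3) and gains (median 26.1) are pooled in it, so it follows which direction is more frequent and is not a typical change. The pooled median reversed to -23.7 with differences of at least 20 points, since that minimum removes more gains than losses. The share of loss over all listed DMRs then rose from 45.9% to 60.1%. The shortest coding transcript of *Foxp1* left 13 of its 25 DMRs, since its body is shorter, and assignment to the nearest promoter in the authors' list gave *Foxo1* 7 instead of 3. Differences of at least 20 points also took the share of loss over the members from 44.7% to 54.8%, and the shortest transcripts left 26 of the 38 DMRs. In all, 45 values, this last pair included, stayed within 1.5 times the main count, the 95% Wilson interval of the main share or 1 point of the main median. Values per sample were not used, so none of these counts carries a replicate error, and 22 of the 38 DMRs rest on 3 CpGs. No paired analysis was run, as the values used are group means.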

Other observations

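Other endothelial transcription factor genes also differed from each other in direction. Of 18 such genes 13 had a DMR in the body (72.2%, beside 17.6% of all genes). Their median length was 21.3 kb, beside 13.5 kb over all genes. A loss was found in 11 of the 18 (8.46% of all genes) and a gain in 5 (11.4% of all genes). The DMRs were 53 losses and 18 gains, where 57.5% of all DMRs in gene bodies were losses. *Erg*, an ETS factor of EC identity, had 15 losses and 1 gain in its body, the losses from a median of 50.6% to one of 15.9%. *Ets1* had 12 losses in its body and *Gata2* had 10. *Fli1*, the ETS factor most closely related to *Erg*, went the other way, with 10 gains and 1 loss in its body. Its gains, with those in the flank, began at a median of 26.2% and ended at 54.4%, a higher start than the 11.6% of the *Foxp1* gains.

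The genes most like *Foxp1* were sought by the distance between numbers of loss and gain DMRs, on the scale of log2(number + 1), among the 49 genes with at least 20 DMRs in the body. Of these 49 genes 6 had more gains than losses. The nearest was *Tbx3os1*, an antisense transcript of *Tbx3*, with 8 losses and 15 gains at a distance of 0.09. *Plxna4*, a semaphorin co-receptor, followed with 6 losses and 15 gains at 0.37, and *St6galnac3*, a sialyltransferase, with 5 losses and 16 gains at 0.58. The measure uses counts only and says nothing of position or level.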
